A study of Mus musculus with 24 samples.

Results

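The Kupffer cell samples of this study are the 6 libraries made from macrophages of the mouse liver, 3 from wild-type animals (WT) and 3 from animals of the genotype labelled Z165KO (KO here), out of 24 libraries in the series. They were chosen by the cell type and genotype in each sample's labels, and KO was compared with WT over the 19085 genes that passed a filter on low counts. The series profiles resident macrophages of 4 tissues in both genotypes by bulk RNA sequencing, and its title names the transcription factors cMaf and Zeb2. RNA of each sample came from 100000 sorted macrophages of digested tissue. The labels used here do not describe the Z165KO allele, the sorting gate, or the age, sex or strain of the animals. They give no treatment, and they do not say that the replicates are separate animals, so a p-value here reflects only how these samples vary, and that variation may be technical.

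Kupffer cells line the sinusoids of the liver, where they clear bacteria, worn-out red cells and lipoproteins from portal blood. Their identity depends on a network of transcription factors that includes Zeb2, the nuclear receptor LXR-alpha (Nr1h3), Id3 and Spic, and Zeb2 is a zinc-finger repressor that binds E-box motifs. B cells, which circulate through the same sinusoids, are recognised by their immunoglobulin transcripts, by the signalling chains Cd79a and Cd79b of the antigen receptor and by the transcription factors Ebf1 and Pax5.

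The libraries held from 57733667 to 65981787 counts, with no split between the genotypes, and from 18223 to 19708 genes with at least 10 counts. Mitochondrial genes took between 0.401% and 0.622% of the counts of a library. The first principal component (30.3% of the variance) separated WT from KO, and KO replicates 1 and 3 lay at opposite ends of the second (21.8%). Levels are given as CPM (counts scaled to the library total), and fold changes are fitted log2 values of KO over WT with their standard error (SE).

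The samples carried the defining genes of Kupffer cells at high levels in both genotypes. Ranked by length-scaled abundance (TPM) over the mean of the WT libraries, Clec4f, a galactose-binding lectin, was the gene with rank 6, the complement receptor Vsig4 had rank 36 and the phosphatidylserine receptor Timd4 had rank 119. Clec4f stood at 8844, 10253 and 8962 CPM in WT and at 9121, 8175 and 9809 in KO, and the groups overlapped (log2 −0.03 ± 0.14 SE; 95% interval −0.35 to 0.30). Timd4 stood at 607, 695 and 578 CPM in WT and at 690, 620 and 698 in KO (log2 0.12 ± 0.14), and Vsig4 at 1366, 1649 and 1286 against 1572, 1426 and 1899 (log2 0.21 ± 0.18). All 3 markers overlapped between the genotypes, and the sign for Clec4f turned without KO replicate 2 (0.08) or WT replicate 2 (0.05).

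Zeb2 was read next, since the title names it. Its counts cover the whole gene (chromosome 2, 44983632 to 45117395 on the minus strand of mm10) and give no view of single exons or regulatory elements. The WT libraries read 277, 321 and 235 CPM and the KO libraries 279, 237 and 282, with overlapping groups (a log2 difference of −0.04 ± 0.17; 95% interval −0.43 to 0.36; adjusted p = 0.985). Maf, the gene of cMaf, stood at 81.4, 81 and 99.4 CPM in WT and at 79.7, 87.4 and 85.9 in KO (log2 −0.03 ± 0.13; 95% interval −0.35 to 0.29). The Zeb2 interval runs from 74.1% to 128% of the WT level.

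Of the 19085 genes tested, 12 (0.0629%) differed between the genotypes at an adjusted p under 0.05 with edgeR's quasi-likelihood test and Benjamini-Hochberg adjustment, and all 12 were lower in KO. No gene was called higher by this test, while 542 genes were higher and 783 lower at an unadjusted p under 0.05. Of the 12, 6 belong to the list of 18 B cell marker genes, 4 are immunoglobulin genes, and 8 code for proteins. The median log2 fold change over all genes tested was −0.0029. Among the 12, 5 had 0 counts in all 3 KO libraries, and in 7 of the 12 no KO library reached the level that the filter asks for (0.163 CPM), so these 7 passed the filter through WT alone.

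**Figure D1:**
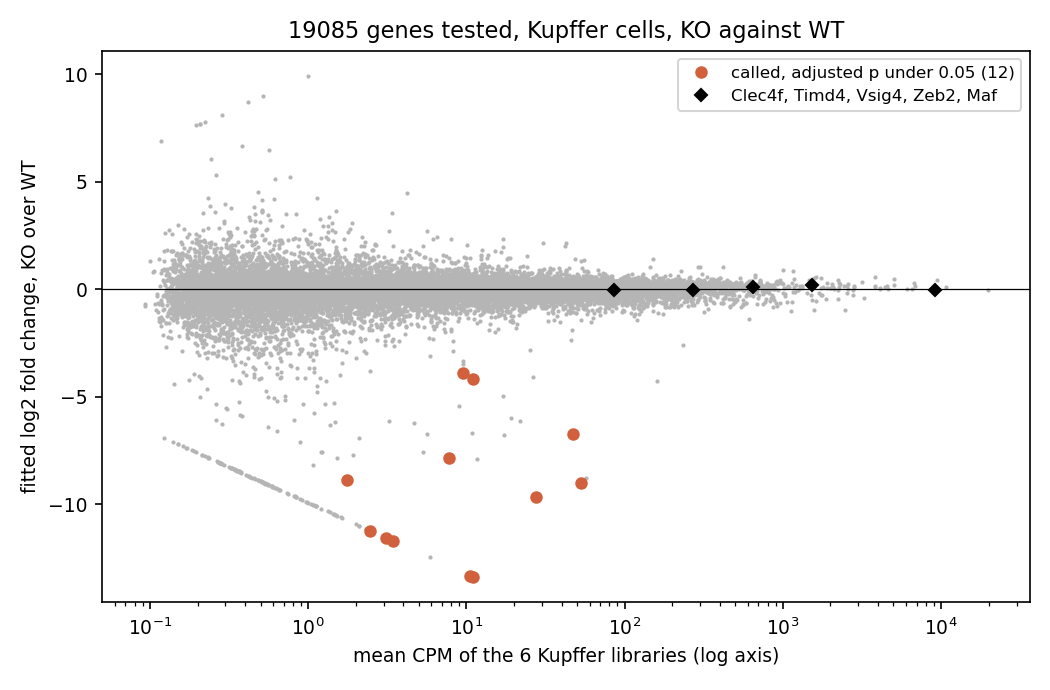
Fitted log2 fold change of KO over WT (vertical axis) against the mean CPM of the 6 Kupffer libraries (log axis) for each of the 19085 genes tested. The 12 called genes (large orange points) all lie below 0, while Clec4f, Timd4, Vsig4, Zeb2 and Maf (black diamonds) lie close to 0; the thin diagonal at the lower left is made of genes with 0 counts in KO.

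The called genes begin with the B cell receptor and its signalling chains. Ighd, the constant region of immunoglobulin D (ENSMUSG00000104213; chromosome 12, 113406604 to 113416324), stood at 105, 88.4 and 85.5 CPM in WT and at 0.712, 1.47 and 0.454 in KO. The means were 93 ± 10.6 and 0.88 ± 0.529 CPM (SD, n = 3 each), a 106-fold difference (log2 −6.73 ± 0.41; adjusted p = 0.00903). Every KO library lay far below every WT library, and Ighd marks mature naive B cells. Cd79a, a signalling chain of the receptor (ENSMUSG00000003379; chromosome 7, 24897381 to 24902197), stood at 131, 101 and 84.1 CPM in WT and at 0.394, 0 and 0.195 in KO. Its mean was 537-fold lower (log2 −8.99 ± 0.75; adjusted p = 0.0283). Blk, a B-lymphoid tyrosine kinase of the Src family (chromosome 14, 63372836 to 63417037), had the smallest fold change of the 10 named genes and kept a readable level in KO. It stood at 20.1, 18.3 and 15.1 CPM in WT and at 1.03, 1.92 and 0.633 in KO, 14.9-fold lower (log2 −3.90 ± 0.40; adjusted p = 0.0432). Iglc1, a lambda light chain constant gene (chromosome 16, 19061618 to 19062071), stood at 18, 33.6 and 14.9 CPM in WT and had 0 counts in KO. Against 3 counts over the KO group (0.016 CPM) this is at least 1384-fold lower (adjusted p = 0.0351). The remaining called immunoglobulin genes, Igkv10-96 and Igkv1-110, are kappa variable segments with 1239 and 897 counts over the WT libraries and 0 over the KO libraries. Light chain segments have near-identical copies, and the sources used here do not give how reads were shared between copies.

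The transcription factors that commit cells to the B lineage fell with them. Ebf1, the early factor of that lineage (ENSMUSG00000057098; chromosome 11, 44617317 to 45008091), stood at 31.9, 16.1 and 15.6 CPM in WT and had 0 counts in every KO library. Pax5, which maintains B cell identity (ENSMUSG00000014030; chromosome 4, 44524757 to 44710487), stood at 7.9, 5.54 and 5.11 CPM in WT and also had 0 counts in every KO library. The WT sums were 3808 counts for Ebf1 and 1117 for Pax5, so the means were at least 1324-fold and at least 386-fold lower in KO (adjusted p = 0.034 for both).

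Surface receptors and an enzyme made up the rest. Fcmr, the Fc receptor for immunoglobulin M (ENSMUSG00000042474; chromosome 1, 130865669 to 130880791), stood at 66.8, 54.6 and 43.9 CPM in WT and at 0.0152, 0.167 and 0.0162 in KO, a difference of 832-fold (log2 −9.69 ± 0.61; adjusted p = 0.00903). Cxcr5, the chemokine receptor that guides B cells into follicles (ENSMUSG00000047880; chromosome 9, 44511787 to 44561877), stood at 31, 15.8 and 15.7 CPM in WT and at 1.23, 1.02 and 1.14 in KO (18.5-fold; log2 −4.18 ± 0.36; adjusted p = 0.0283). The KO libraries thus kept a similar low level of Cxcr5 in all 3 replicates, in contrast to Ebf1 and Pax5. Il5ra, a subunit of the interleukin-5 receptor that eosinophils and some B cells carry (chromosome 6, 106710357 to 106749037), stood at 4.4, 2.41 and 3.74 CPM in WT and at 0, 0.0167 and 0 in KO. That is 634 counts against 1, a ratio of 654 after scaling by the total counts of each group, with a 95% counting interval of 117 to 25862 (adjusted p = 0.0418). Chst3, a sulfotransferase that acts on chondroitin (ENSMUSG00000057337; chromosome 10, 60181532 to 60219260), stood at 21.2, 16.6 and 8.83 CPM in WT and at 0.106, 0.0335 and 0.0487 in KO (248-fold; log2 −7.87 ± 0.58; adjusted p = 0.0187). All 3 KO libraries of Chst3 stood near 0.

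**Figure D2:**
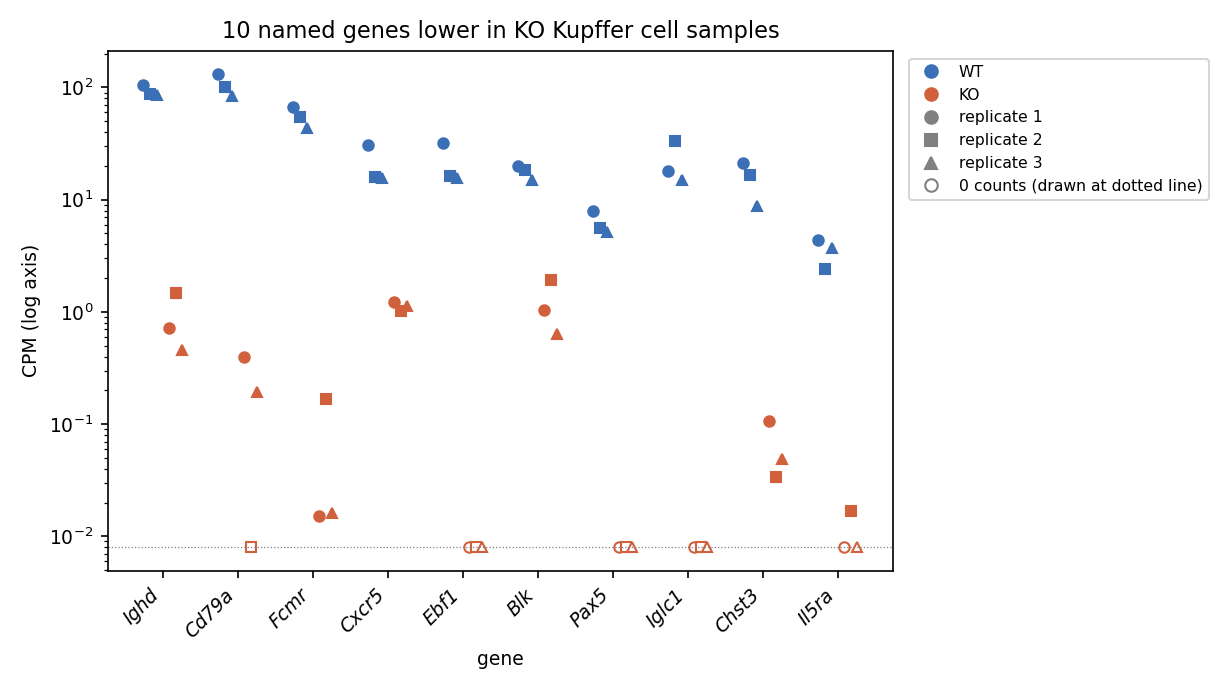
CPM (log axis) of the 10 named genes called lower in KO, with 1 point per Kupffer library (blue WT, orange KO, shape by replicate; open points at the dotted line are 0 counts). No KO library reaches the lowest WT library in any of the 10 genes; Ebf1, Pax5 and Iglc1 are at 0 counts in all 3 KO libraries, and Cxcr5 and Blk keep about 1 CPM.

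The number of calls varied with which library was left out. Without any 1 of the WT libraries no gene was called, without KO replicate 1 only 1, without KO replicate 3 only 4, and without KO replicate 2 the count was 15. The Wald test of DESeq2 on the same counts called 413 genes (2.16%), 283 lower (1.48%) and 130 higher (0.681%), among them all 12. The edgeR fit to all 24 libraries of the series called 9 of the 12. Chst3, Cxcr5 and Il5ra were not called in that fit (edgeR adjusted p = 0.0998, 0.172 and 0.141).

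Promoter sequence is shown for 2 of the called genes because each holds a motif that factors named here are known to bind: CACCTG, an E-box read by ZEB proteins and E proteins, and TCCCNNGGGA, the palindrome of EBF1. Of the 12 called genes, 6 had an entry in the RefSeq promoter table (GRCm38.p6), which covers 250 bases before the start of each gene. Both strands were searched over those 250 bases. CACCTG or its complement CAGGTG stood in 1 of the 6 (Cd79a) and in 17.2% of all 32851 promoters, and TCCCNNGGGA in 1 of the 6 (Chst3) and in 0.779% of all. The windows run 5′ to 3′ on the gene's strand, chr7:24897247-24897380 (plus strand) for Cd79a, trimmed at the annotated start of the gene, and chr10:60219261-60219510 (minus strand) for Chst3, with the match in capitals.
Cd79a: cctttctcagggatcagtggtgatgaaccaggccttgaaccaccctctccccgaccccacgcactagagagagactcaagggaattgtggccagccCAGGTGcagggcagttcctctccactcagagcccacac
Chst3: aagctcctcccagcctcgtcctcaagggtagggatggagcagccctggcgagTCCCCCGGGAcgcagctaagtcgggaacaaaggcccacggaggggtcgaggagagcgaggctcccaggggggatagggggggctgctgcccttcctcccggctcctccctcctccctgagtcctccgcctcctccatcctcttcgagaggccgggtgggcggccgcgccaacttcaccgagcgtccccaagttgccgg
The match starts 38 bases from the 3′ end of the Cd79a window and 198 bases from the 3′ end of the Chst3 window. A match of letters is a description of the sequence, and no binding was measured in these samples.

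Nearly the whole B cell list stood lower in KO. All 18 members were tested, 6 were called lower and none higher, 16 had every KO library below every WT library (7.04% of all genes tested did), and the median log2 fold change was −6.41. Of the 18, 3 passed the filter with no KO library at its minimum level. Summed over the list, WT libraries held 2011, 1624 and 1317 CPM and KO libraries 322, 417 and 364. In bulk samples, fewer cells of a type and less RNA per cell cannot be told apart.

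Members outside the calls, named after their values were seen, differ in how much was left. Ms4a1, the gene of CD20, stood at 44.6, 33.4 and 25.1 CPM in WT and at 0.394, 0.0167 and 0.487 in KO (adjusted p = 0.0558). Cr2, a complement receptor, stood at 20.8, 15 and 9.65 CPM against 0.136, 0 and 0.0649 (adjusted p = 0.0527). Both genes had WT and KO groups that lay far apart. Cd79b, the partner chain of Cd79a, stood at 77.8, 85.4 and 57.3 CPM in WT and at 15.3, 21 and 22.1 in KO, and unlike Cd79a it was read well above 0 in every KO library. Cd22, a sialic acid-binding inhibitory receptor, stood at 122, 121 and 96.1 CPM in WT and at 40.3, 40.4 and 81.2 in KO. The adaptor Bank1 stood at 181, 212 and 154 CPM in WT and at 162, 157 and 213 in KO, and Ralgps2 at 54.3, 39.1 and 26.2 against 24.1, 41.8 and 18.9. Bank1 and Ralgps2 were the 2 members of the list with overlapping groups, and the sign of the Bank1 difference (log2 −0.01 ± 0.20) turned in 3 of the 6 fits that left out 1 library.

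Immunoglobulin genes separated the KO libraries from each other as well as from WT. Of 432 immunoglobulin genes in the table, 134 passed the filter, and 4 of these were called lower. Of the 134, 118 had no KO library at the minimum of the filter and so entered the test through WT alone, which largely fixed their direction. Of the genes tested, 120 had 0 counts in all 3 KO libraries, 99 of them immunoglobulin genes, and 9 had 0 counts in WT, but such genes could pass the filter only through the other genotype. Summed over all immunoglobulin genes, WT libraries held 1514, 1098 and 951 CPM and KO libraries 77.2, 237 and 28. KO replicate 2 held the most of the KO libraries and KO replicate 3 the least. Igkc, the kappa constant gene, stood at 392, 263 and 258 CPM in WT and at 0.682, 49.2 and 0.195 in KO (adjusted p = 0.686). Igha, the constant region of immunoglobulin A, stood at 105, 62.6 and 60.7 CPM in WT and at 0, 46.4 and 0 in KO (adjusted p = 0.886), and Jchain, which links secreted IgA and IgM, at 13.1, 7.43 and 9.98 against 0.637, 5.74 and 0 (adjusted p = 0.825). In Igha and Jchain KO replicate 2 stood just below the lowest WT library, while in Igkc it stood well below WT. The other two KO libraries were below 1 CPM in each of these genes. Ighm, the constant region of immunoglobulin M, stood at 509, 391 and 303 CPM in WT and at 74.4, 97.9 and 26.8 in KO (6.04-fold; adjusted p = 0.114). Without KO replicate 2, Igha and Igkc passed the test (adjusted p = 0.0216 and 0.0183), and over all alternatives their adjusted p ranged up to 0.999 and 0.9.

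The same B cell genes were set beside the other macrophages of the series, whose libraries are separate from these. In splenic macrophages Ighd had a mean of 130 CPM in WT and of 0.586 in KO, and its means were 7.46 and 0.673 in alveolar macrophages and 15 and 16.1 in microglia. Its genotype effect in Kupffer cells was lower than that in microglia by 6.81 on the log2 scale (SE 0.957; adjusted p = 0.0106; 0.00832% of 24030 genes were called in that contrast), and differences from the alveolar and splenic effects were not called (adjusted p = 0.184 and 0.866; 0.304% and 0.0208% of genes were called). In WT and KO microglia the means were 0.832 and 0.704 CPM for Cd79a, 0.815 and 2 for Ebf1, and 0 in both for Fcmr. Cd79b, in contrast, had microglial means of 41.9 and 30.2 CPM. Whether the microglial Ighd reads come from B cells was not tested. Ebf1 had means of 32.6 and 0.017 CPM and Pax5 of 9.14 and 0 CPM in WT and KO splenic macrophages, so low B cell transcripts in KO were measured in that tissue too. Over all 24030 genes of the fit to 24 libraries, 1 gene (0.00416%) had a genotype effect in Kupffer cells that differed from the average effect in the other 3 cell types. This was Chn2, a GTPase-activating protein for Rac, with a contrast of 2.66 ± 0.28 (adjusted p = 0.000223). Chn2 stood at 16, 21 and 20.8 CPM in WT and at 21.2, 32.1 and 28.3 in KO Kupffer cells (adjusted p = 0.687), while its alveolar means were 1.48 and 0.011 CPM, its microglial means 78.3 and 93.5 and its splenic means 58.4 and 59.7. Against alveolar macrophages alone the contrast was 7.28 ± 0.46 (adjusted p = 5.27e-08), and against microglia and splenic macrophages 0.26 ± 0.28 and 0.44 ± 0.28.

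Genes that define Kupffer cells were measured at similar levels in both genotypes. Of the 24 identity genes tested, 0 were called in either direction, 20 overlapped between the genotypes, and the median log2 fold change was 0.07. For 2 every KO library was above WT (5.87% of all genes were) and for 2 below it (7.04% were). At an unadjusted p under 0.05, 2 of the 24 were higher (2.84% of all genes were), Cd38 and Cd207, and none lower (4.1% were). DESeq2 called neither Cd38 nor Cd207. Cd38, an NAD-consuming ectoenzyme, stood at 587, 588 and 490 CPM in WT and at 658, 728 and 746 in KO (log2 0.38 ± 0.13; adjusted p = 0.61). Cd207, the lectin langerin, stood at 121, 152 and 100 CPM against 175, 165 and 198 (log2 0.56 ± 0.19; adjusted p = 0.62), and both genes had all KO libraries above all WT libraries. Cdh5, the cadherin of endothelial junctions that Kupffer cells also carry, stood at 153, 160 and 188 CPM in WT and at 129, 137 and 141 in KO (log2 −0.28 ± 0.13). The iron exporter Slc40a1 stood at 4125, 5022 and 3577 CPM against 5116, 4725 and 7657, and the scavenger receptor Marco at 1294, 946 and 767 against 640, 365 and 965, with overlapping groups in both.

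The transcription factors of this identity gave the same picture at the level of the list. Of 27 tested, 0 were called, 22 overlapped and the median was −0.00. For 2 every KO library was above WT (5.87% of all genes were) and for 3 below it (7.04% were). Nr1h3 stood at 471, 532 and 421 CPM in WT and at 490, 388 and 593 in KO. Its log2 fold change was 0.08 ± 0.21, and the sign turned without KO replicate 3. Irf8, a factor needed for macrophages and for type 1 dendritic cells, stood at 480, 484 and 584 CPM in WT and at 781, 997 and 666 in KO (log2 0.67 ± 0.15; adjusted p = 0.246). Klf4 stood at 55.5, 36.5 and 85.4 CPM against 29.6, 21.9 and 28 (log2 −1.13 ± 0.32; adjusted p = 0.442), and Klf2 at 948, 877 and 1499 against 759, 650 and 707 (log2 −0.63 ± 0.23; adjusted p = 0.639). Both Klf genes are also induced by tissue digestion, and WT replicate 3 was the highest library in each. The part of digestion in these values was not tested. The groups of Irf8, Klf4 and Klf2 did not overlap, and none of the 3 passed the test.

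**Figure D3:**
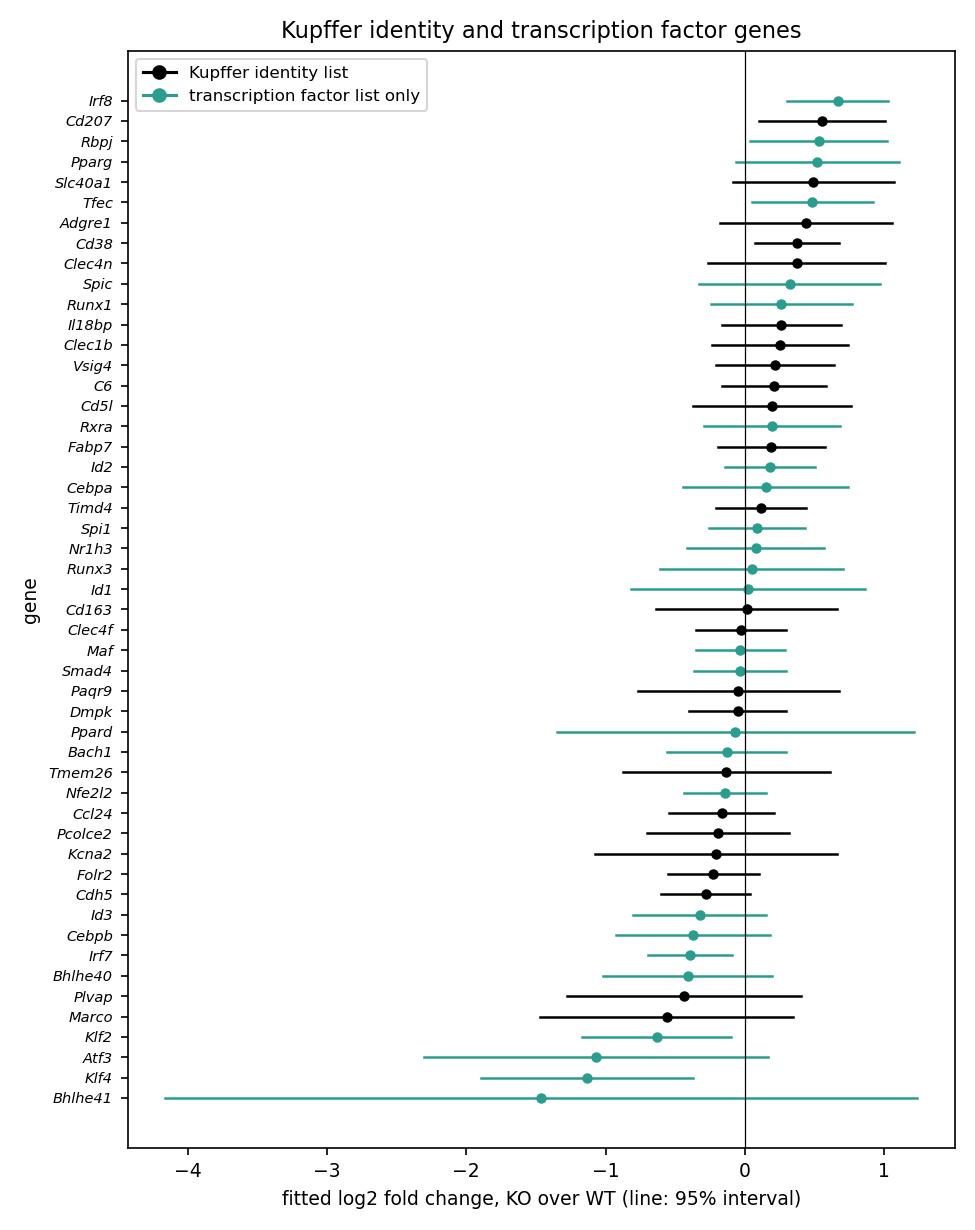
Fitted log2 fold change of KO over WT (horizontal axis) with its 95% interval for the Kupffer identity genes (black) and for genes only in the transcription factor list (green). Clec4f, Maf and Nr1h3 lie near 0, Irf8 and Cd207 lie highest, and Klf4 and Klf2 have intervals below 0.

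No gene was called higher in KO, so 10 genes on that side are given as values. They were chosen by the smallest p among genes with separate groups and at least 5 CPM in KO. Predicted genes, pseudogenes, noncoding genes and immunoglobulin or T cell receptor segments were left out of that choice. Wdfy4, a protein that type 1 dendritic cells need for cross-presentation, stood at 214, 161 and 205 CPM in WT and at 410, 419 and 336 in KO (log2 1.02 ± 0.14; adjusted p = 0.0882). Ppt1, a lysosomal thioesterase, stood at 258, 252 and 311 CPM against 516, 765 and 416 (log2 1.05 ± 0.20; adjusted p = 0.153), and Naaa, a lysosomal acid amidase, at 72.3, 65.7 and 109 against 227, 290 and 137 (log2 1.41 ± 0.29; adjusted p = 0.187). In Ppt1 and Naaa, KO replicate 2 was the highest and KO replicate 3 the lowest of the KO libraries. Mycl, a MYC family factor used by type 1 dendritic cells, stood at 9.53, 10.7 and 12.9 CPM in WT and at 44.8, 80.7 and 23.1 in KO (log2 2.15 ± 0.40; adjusted p = 0.146), and Gpr141b at 4.61, 5.24 and 6.8 against 21.4, 49 and 14.7 (adjusted p = 0.145). The aminopeptidase Anpep stood at 5.8, 6.46 and 6.67 CPM against 18.9, 25.2 and 10.6 (adjusted p = 0.153). Mycl, Gpr141b and Anpep had the same order of KO libraries as Ppt1 and Naaa, as did Wdfy4 above and Tpx2 below. The spindle factor Tpx2 stood at 9.16, 11.3 and 9.34 CPM against 27, 33.5 and 18.2 (adjusted p = 0.114), and Fancd2, of the Fanconi DNA repair pathway, at 5.66, 5.8 and 3.62 against 11.2, 14.3 and 17 (adjusted p = 0.149). Zfp654 stood at 17.4, 18.8 and 15.5 CPM against 26.6, 30.8 and 30.4 (adjusted p = 0.164), and the fibrinogen-like protein Fgl2 at 173, 190 and 158 against 271, 256 and 250 (adjusted p = 0.187). The fit to all 24 libraries called 4 genes higher in KO (0.0166% of 24030), Ppt1 (adjusted p = 0.00217), Naaa (0.00461), Otulinl, a homologue of a deubiquitinase (185, 174 and 165 CPM against 213, 267 and 246; 0.0334), and D630039A03Rik (0.0139). D630039A03Rik had 0 counts in all 3 WT libraries and 1.92, 0.669 and 0.519 CPM in KO. In the fit to 6 libraries it passed the filter through KO alone.

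Dendritic cell markers stood on both sides of 0 within their list, and no member passed the test. Of 19 tested, 0 were called, and the median log2 fold change was 0.16. For 4 every KO library was above WT (5.87% of all genes were) and for 7 below it (7.04% were). At an unadjusted p under 0.05, 6 were higher (2.84% of all genes were) and 6 lower (4.1% were). On the higher side, Xcr1, the chemokine receptor of type 1 dendritic cells, stood at 13.5, 10.6 and 25.4 CPM in WT and at 67.5, 97.9 and 37.5 in KO (log2 2.03 ± 0.42; adjusted p = 0.196), and Snx22 at 5.16, 5.27 and 9.77 against 22.1, 35.7 and 13 (adjusted p = 0.238). Clec9a, their receptor for dead cells, stood at 15.8, 11.9 and 16.4 CPM against 34.4, 43 and 15.6, and Flt3, the cytokine receptor of dendritic cells, at 26.9, 22.5 and 41.7 against 68.9, 118 and 39. The groups overlapped for Clec9a and Flt3 through KO replicate 3, which was the lowest KO library for all 4 genes.

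On the lower side were markers of type 2, migratory and plasmacytoid dendritic cells. Mgl2, a lectin of type 2 dendritic cells, stood at 29.4, 10.6 and 11.8 CPM in WT and at 1.83, 1.02 and 2.16 in KO (log2 −3.32 ± 0.53; adjusted p = 0.114). Cd209a, a lectin of the same cells, stood at 67.3, 22.8 and 23.3 CPM against 0.97, 0.786 and 0 (log2 −6.00 ± 1.08; adjusted p = 0.139). The groups of Mgl2 and Cd209a lay well apart, and WT replicate 1 stood above the other WT libraries in both. Clec10a stood at 25.1, 17.1 and 20.5 CPM against 14.3, 11.1 and 8.94, and Irf4, a factor of type 2 dendritic cells and of plasma cells, at 24.9, 13.8 and 14.2 against 2.97, 3.75 and 10.5. Ccr7, which directs migration to lymph nodes, stood at 196, 118 and 208 CPM in WT and at 83.6, 70.9 and 38.8 in KO (log2 −1.42 ± 0.32; adjusted p = 0.225). Siglech, a lectin of plasmacytoid cells that microglia also carry, stood at 1.78, 1.68 and 2.16 CPM against 0, 0.318 and 0.584, and Bst2, an antiviral protein, at 294, 252 and 317 against 230, 207 and 232. Summed over the list, the libraries held 1409, 1146 and 1471 CPM for WT and 1576, 1928 and 1219 for KO, and the totals overlapped. The part of dendritic cell transcripts in the values of Irf8, Wdfy4, Mycl, Naaa and Ppt1 above was not tested.

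**Figure D4:**
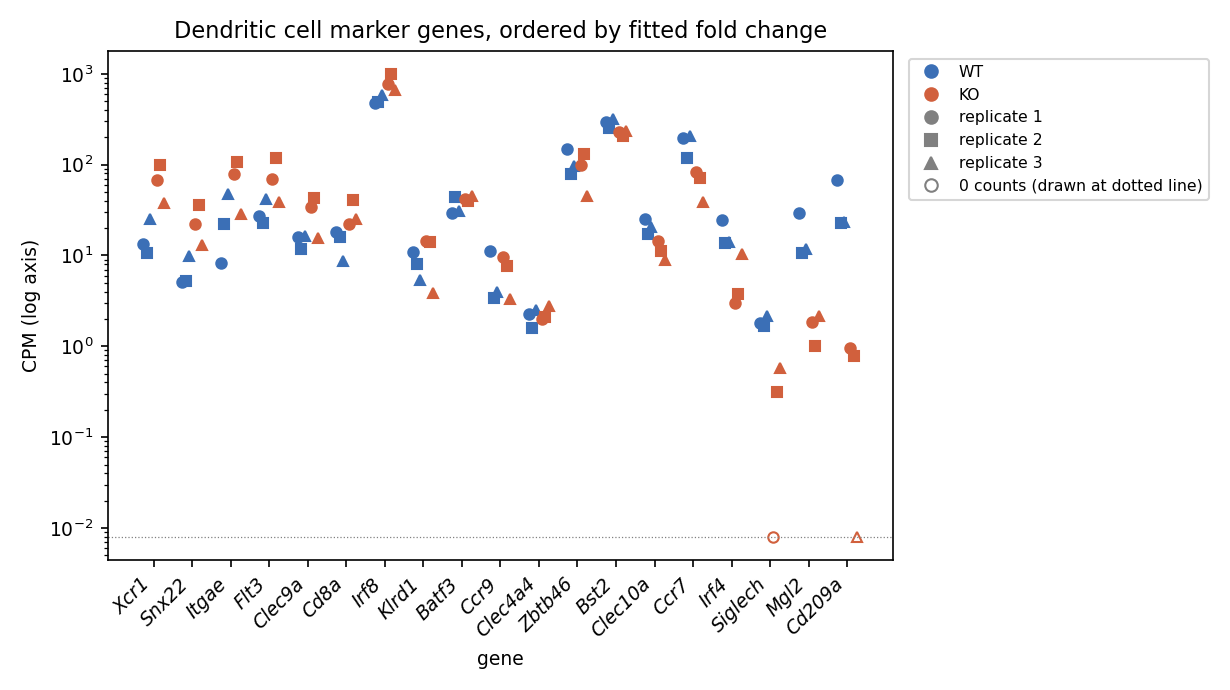
CPM (log axis) of the 19 dendritic cell marker genes tested, ordered from the highest to the lowest fitted fold change, with 1 point per Kupffer library (blue WT, orange KO, shape by replicate; open points at the dotted line are 0 counts). Xcr1 and Snx22 at the left stand higher in KO, Mgl2 and Cd209a at the right stand lower, and no gene of the list passed the test.

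Genes of antigen presentation also stood on both sides of 0. Of 14 class II and peptide-loading genes tested, 0 were called. For 5 every KO library was above WT (5.87% of all genes were) and for 3 below it (7.04% were). H2-Ab1, a class II beta chain, stood at 3436, 3104 and 2802 CPM in WT and at 5220, 4475 and 3858 in KO (log2 0.55 ± 0.14; adjusted p = 0.312). The peptide-exchange subunits H2-DMa and H2-DMb1 stood at 234, 264 and 232 CPM against 342, 324 and 345, and at 208, 229 and 190 against 314, 304 and 301. The other 3 were lower: H2-DMb2 stood at 113, 76.6 and 75.2 CPM against 43.9, 46.1 and 31.4 (log2 −1.11 ± 0.20; adjusted p = 0.145), H2-Oa at 17, 18.4 and 19.2 against 9.55, 14.3 and 5.55, and H2-Ob at 106, 83.6 and 78.9 against 49.8, 76.2 and 18. H2-Oa and H2-Ob encode the DO heterodimer, which B cells carry; whether their values move with the B cell markers was not tested.

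Fc receptors and monocyte markers held further genes with separate groups. Among 10 Fc receptor genes, 1 was called lower, Fcmr (0.0629% of all genes tested were). For 4 of the 10 every KO library was below WT (7.04% of all genes were) and for 1 above it (5.87% were). The other 5 overlapped. The low-affinity receptor Fcer2a, which B cells carry, stood at 47.6, 45.8 and 35.5 CPM in WT and at 1.21, 0.619 and 0 in KO (adjusted p = 0.114). Fcgr2b, the inhibitory receptor of B cells, macrophages and sinusoidal endothelium, stood at 597, 500 and 705 CPM against 444, 499 and 171. Its lowest WT library (500 CPM) and highest KO library (499 CPM) were nearly equal. Fcgr3, an activating receptor, stood at 553, 649 and 653 CPM against 883, 740 and 839 (log2 0.43 ± 0.15). Of 19 monocyte markers tested, 0 were called, 11 had a fitted change above 0 and 8 below, with a median of 0.11 on the log2 scale. For 6 of them every KO library was below WT (7.04% of all genes tested were). For none was every KO library above WT (5.87% were), and the remaining 13 overlapped. Ace, the angiotensin-converting enzyme found on Ly6C-low monocytes, stood at 22.7, 24.3 and 6.01 CPM in WT and at 0.0606, 0.686 and 0.487 in KO (log2 −5.42 ± 0.91; adjusted p = 0.114). Ms4a4c stood at 25.9, 22.7 and 21.4 CPM against 11.1, 14.9 and 13.7 (adjusted p = 0.217), and Eno3 at 14.9, 15.9 and 15.3 against 8.29, 8.15 and 11.2. The orphan nuclear receptor Nr4a1, which those monocytes need and tissue digestion induces, stood at 863, 470 and 1334 CPM against 354, 264 and 394 (adjusted p = 0.425). Summed over the monocyte list the libraries overlapped, at 3358, 4522 and 3580 CPM in WT and at 5775, 3204 and 3187 in KO.

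Of 21 T and NK cell markers tested, 0 were called, and the genotypes overlapped in 18. The other 3 had every KO library above WT (5.87% of all genes tested did). Trbc1, a T cell receptor constant gene, stood at 25.7, 20.2 and 20.4 CPM in WT and at 33.4, 35.1 and 29.1 in KO (adjusted p = 0.363), the protease Gzma at 30.8, 29.5 and 30.5 against 45.9, 40.1 and 60.4 (adjusted p = 0.442), and Cd8a, which type 1 dendritic cells also carry, at 18, 16.1 and 8.62 against 22, 40.7 and 25.3. Summed over the whole list of 21, the libraries overlapped, at 668, 505 and 385 CPM in WT and at 794, 845 and 453 in KO.

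Sinusoidal endothelial transcripts were abundant in all 6 libraries and lowest in KO replicate 3. All 24 of the list that were tested had a fitted change below 0, with a median of −0.70, and 0 were called. For 11 every KO library was below WT (7.04% of all genes tested were). The list summed to 15605, 12794 and 16431 CPM in WT and to 10674, 13017 and 4511 in KO, and the KO mean of 9400 CPM became 11845 without KO replicate 3. Stab2, a hyaluronan scavenger receptor, stood at 2093, 1693 and 2016 CPM against 1446, 1704 and 798, and the water channel Aqp1 at 1366, 1315 and 1860 against 871, 1049 and 341 (adjusted p = 0.644). Lyve1, a hyaluronan receptor, stood at 149, 137 and 166 CPM against 103, 123 and 67.1, Flt4, a VEGF receptor, at 568, 494 and 679 against 383, 455 and 189, and the lectin Clec4g at 993, 796 and 977 against 674, 850 and 188. Without KO replicate 3 the median over the list was −0.39, still with all 24 below 0. The BMP list, of which endothelium and macrophages share members, had 0 of 24 called; its receptor gene Bmpr1a stood at 15.7, 16.1 and 19.2 CPM against 28.7, 27.8 and 25.7 (log2 0.71 ± 0.15; adjusted p = 0.217), Smad6, an inhibitor of the pathway, at 110, 103 and 103 against 84.5, 80.2 and 57.6, the receptor Bmpr2 at 27.9, 20.7 and 24.4 against 15.5, 20.2 and 14.7, and Eng, a co-receptor of endothelium, at 697, 592 and 796 against 460, 538 and 186. The part of endothelial transcripts in the values of Smad6, Eng and Fcgr2b was not tested.

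**Figure D5:**
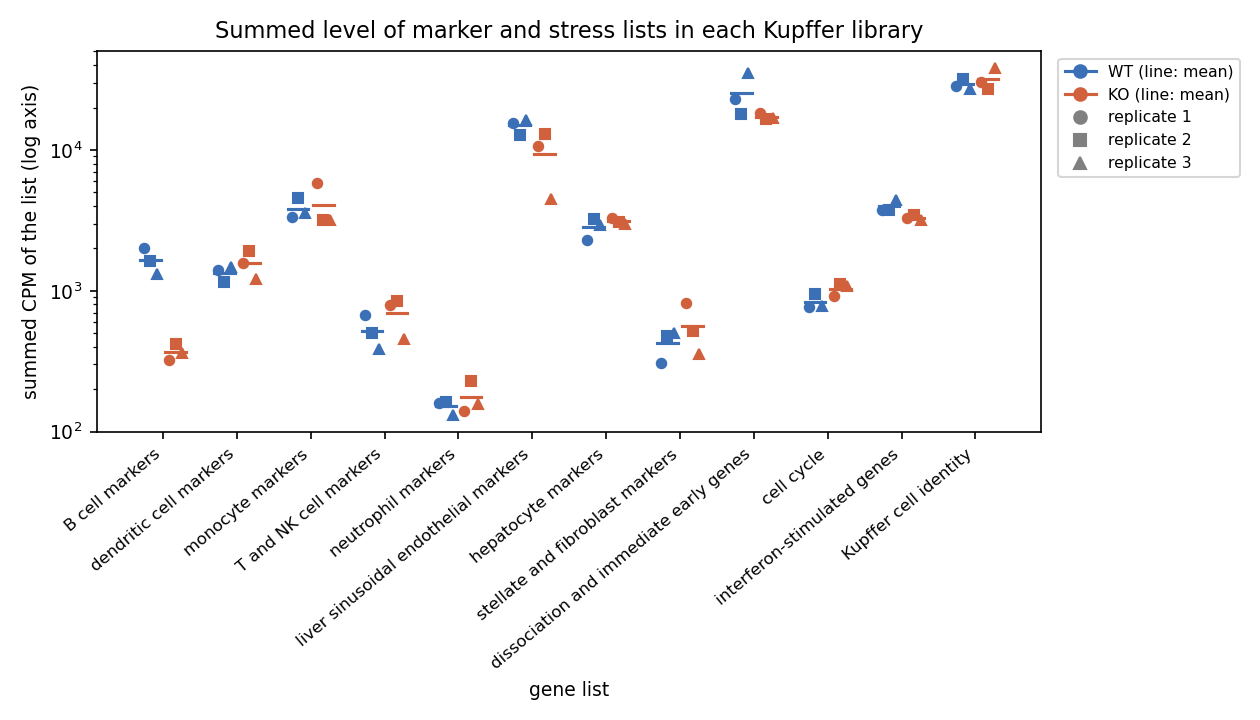
Summed CPM (log axis) of 12 gene lists in each Kupffer library (blue WT, orange KO, shape by replicate, bar at the mean of 3). The B cell list stands at 1317 to 2011 CPM in WT and at 322 to 417 in KO; the endothelial list is lowest in KO replicate 3, and the dissociation and immediate early list is highest in WT replicate 3.

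Genes that tissue digestion induces had fitted values on the lower side in KO, with no call. All 25 dissociation and immediate early genes tested had a fitted change below 0, with a median of −0.51, and 0 were called. For 3 every KO library was below WT (7.04% of all genes tested were). Their sum was 23060, 18095 and 35396 CPM for WT and 18380, 16505 and 16801 for KO, with WT replicate 3 the highest. The median was −0.20 without WT replicate 3 and −0.76 without WT replicate 2, so single WT libraries move it widely. Dusp2, a phosphatase of activated cells, stood at 248, 185 and 266 CPM against 157, 135 and 97.5 (adjusted p = 0.312), and the heat-shock genes Hspa1a and Hspa1b, near-identical copies whose reads may be shared, at 1901, 1433 and 2908 against 894, 1476 and 824 and at 3189, 2310 and 4339 against 1310, 2564 and 1195. The heat-shock pair overlapped between the genotypes and stood highest in WT replicate 3.

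Most interferon-stimulated genes had fitted values on the lower side too. Of 26 tested, 0 were called, and the median was −0.31. For 9 every KO library was below WT (7.04% of all genes were) and for 1 above it (5.87% were). Oasl1, which restrains translation of Irf7, stood at 164, 120 and 203 CPM in WT and at 69.2, 77.6 and 58.1 in KO (log2 −1.24 ± 0.20; adjusted p = 0.114). Irf7, the amplifier of the type I interferon response, stood at 891, 926 and 1079 CPM against 702, 719 and 754 (log2 −0.39 ± 0.13; adjusted p = 0.581). The antiviral enzyme Rsad2 stood at 137, 105 and 179 CPM against 80.8, 89 and 80.9, and its neighbour Cmpk2 at 68.3, 82.4 and 90.4 against 45.5, 67.2 and 55.7. WT replicate 3 was highest in all 4 genes, as it was for the digestion genes, and the part of the digestion genes in these values was not tested. At an unadjusted p under 0.05, 10 of the 26 were lower (4.1% of all genes were). The 10 became 4 without WT replicate 3 and 2 without KO replicate 1.

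Cell cycle genes and Toll-like receptors stood higher without passing the test. Of 28 cell cycle genes, 27 had a fitted change above 0, 0 were called and the median was 0.41. For 8 every KO library was above WT (5.87% of all genes tested were). The kinesin Cenpe stood at 3.9, 7.56 and 4.69 CPM in WT and at 14.2, 19.2 and 10.5 in KO (log2 1.44 ± 0.33; adjusted p = 0.245), Top2a, a DNA topoisomerase, at 34.8, 31.9 and 33.5 against 43.2, 55.9 and 38.2, Stmn1, a tubulin-binding protein, at 23.8, 30.4 and 26.5 against 38.5, 46.7 and 35.1, and the cyclin Ccnb2 at 12.6, 13.4 and 13.7 against 19.2, 18.6 and 19.1. Of 20 Toll-like receptors and adaptors, 10 had every KO library above WT (5.87% of all genes did) and none below (7.04% did). The median was 0.34. The adaptor Ticam1 stood at 7.05, 6.62 and 5.06 CPM against 13.6, 10.6 and 12.6 (adjusted p = 0.275), the receptor for bacterial ribosomal RNA Tlr13 at 117, 110 and 82.5 against 146, 142 and 178, and Tlr3, the receptor for double-stranded RNA that type 1 dendritic cells also carry, at 41.1, 38.9 and 42.4 against 68.2, 110 and 45.5. Tlr9, also among the 10, was low throughout, at 0.0346, 0.0318 and 0.115 CPM in WT and at 0.5, 0.669 and 1.38 in KO (adjusted p = 0.246). No WT library of Tlr9 reached the minimum of the filter (0.163 CPM). It passed the filter through KO alone, which largely fixed its direction.

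Metabolic and lectin genes completed the comparison. Among 19 fatty acid oxidation genes tested, 0 were called and 5 had every KO library above WT (5.87% of all genes did). These 5 include 3 acyl-CoA dehydrogenases. Acadm stood at 44.1, 40 and 33.1 CPM in WT against 50.9, 49.8 and 54.1 in KO. Acadl stood at 80.1, 82.5 and 75.3 against 96.1, 111 and 86.5, and Acadvl at 35.6, 36.2 and 32.3 against 41.8, 44.4 and 42.6. Of 22 C-type lectins, 0 were called. For 4 every KO library was above WT (5.87% of all genes were) and for 4 below it (7.04% were). Cd209f, a homologue of DC-SIGN, stood at 78.4, 130 and 86.7 CPM in WT and at 56.6, 53.9 and 53.2 in KO (log2 −0.83 ± 0.21; adjusted p = 0.329). The 19 genes of LXR targets and lipid efflux, the 19 of heme and iron handling, the 25 cytosolic ribosomal proteins and the 28 lysosomal genes had 0 calls with edgeR, 0 with DESeq2 and 0 members at an unadjusted p under 0.05, with medians of 0.06, 0.19, −0.02 and 0.12.

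Counts under looser criteria are given here with their shares over all genes tested. DESeq2 called 0.681% of all genes higher and 1.48% lower. At an unadjusted p under 0.05 with edgeR, 2.84% were higher and 4.1% lower. DESeq2 called 4 of the 14 antigen presentation genes higher and 1 lower, 4 of the 19 dendritic cell markers higher and 3 lower, 3 of the 28 cell cycle genes higher and 2 of the 20 Toll-like receptor genes higher. It called 3 of the 19 monocyte markers, 2 of the 26 interferon-stimulated genes and 2 of the 25 digestion genes lower, and 0 of the 24 endothelial and 0 of the 19 fatty acid oxidation genes. Of the 18 B cell markers it called 13, all lower. At an unadjusted p under 0.05 with edgeR, 6 antigen presentation genes were higher and 2 lower, 8 cell cycle and 6 Toll-like receptor genes were higher with none lower, and 6 endothelial, 6 digestion and 5 monocyte genes were lower with none higher. Among T and NK cell markers 3 were higher by that measure and 1 by DESeq2. Among BMP genes 1 was higher and 3 lower, against 1 higher by DESeq2. Among the transcription factors 3 were higher and 3 lower, against 1 and 1 by DESeq2. Such small counts are not read as results about these lists.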

How the data were processed

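Bulk RNA sequencing of 6 Kupffer cell samples was analysed, with 18 libraries of other macrophages used in the fit to all 24. The authors deposited separate tables of gene counts, CPM and TPM. The submitters' processing notes name the mm10 build and list DRAGEN, STAR 2.7.9a, Subread, featureCounts 2.0.3 and Salmon 1.5.2, with no roles given. The deposited counts were whole and not normalized, and all tests used them. CPM values come from the counts, and the authors' TPM values were used only to rank genes. Of 55774 rows, 287 were exact repeats of a gene and were left out. Coordinates come from the GENCODE annotation of mm10.

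KO was compared with WT by edgeR's quasi-likelihood F test (edgeR 4.0.16, R 4.3.3, two-sided), with TMM scaling and filterByExpr (minimum count 10, reached by 3 libraries), with Benjamini-Hochberg adjustment over all genes and a threshold of 0.05. The fit was run on simulated data with the same variability for every gene and with changes placed only in well-counted genes. That run does not show how the test does on genes near 0 counts. Alternatives were DESeq2 1.42.0, other filters, size factors, a robust fit, a replicate block, all 24 libraries and leaving out each library. Genes with 0 counts in KO were compared with 3 counts over the group. Intervals from counts cover counting error only. The smallest exact permutation p for 3 against 3 is 0.1, so none was used.

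The comparison and its 42 gene lists were chosen with earlier results of these data known. Genes were named by a rule: Zeb2, Maf and the 3 markers; the called genes with at least 2 CPM and the most extreme fold changes or highest levels; in each list the called members or up to 4 with the smallest p; and up to 10 uncalled genes on the higher side. Other genes were chosen after their values were seen, and some results are not reported here.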

Additional observations from a re-analysis of the deposited data

Results flagged for a closer look

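Differences of the genotype effect between Kupffer cells and another cell type passed the test (edgeR's quasi-likelihood test in the fit to 24 libraries, Benjamini-Hochberg adjustment) for 5 genes named above. For Ighd the Kupffer effect minus the microglial effect was −6.81 on the log2 scale (SE 0.957; adjusted p = 0.0106). For Naaa the Kupffer effect minus the alveolar effect was 1.38 (SE 0.286; adjusted p = 0.0473), with alveolar means of 444 CPM in WT and 448 in KO. For Bmpr1a the Kupffer effect minus the splenic effect was −1.97 (SE 0.282; adjusted p = 0.0095), where splenic macrophages had means of 3.27 CPM in WT and 20.5 CPM in KO and Kupffer cells of 17 and 27.4. For Chn2 the Kupffer effect minus the average of the other 3 effects was 2.66 (SE 0.276; adjusted p = 0.000223) and the Kupffer effect minus the alveolar effect was 7.28 (SE 0.463; adjusted p = 5.27e-08). For D630039A03Rik the Kupffer effect minus the alveolar effect was 9.37 (SE 1.40; adjusted p = 0.0187), with 0 counts in all 3 Kupffer WT libraries, a Kupffer KO mean of 1.04 CPM, and alveolar means of 29.1 CPM in WT and 19.2 CPM in KO. Against a group at 0 the size of that fitted difference depends on the prior count. Within Kupffer cells, Naaa was not called in the fit to 6 libraries (edgeR adjusted p = 0.187) but was called in the fit to 24 (0.00461) and by DESeq2 (0.000282). Bmpr1a was called by neither edgeR fit (adjusted p = 0.217 and 0.223) but by DESeq2 (0.00161). The groups of 3 libraries are too small for a test of single outlying libraries.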

How the results depend on the processing

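The 12 calls in Kupffer cells became 413 with DESeq2, 76 without the filter on low counts, 50 with a minimum count of 50, 48 with all 24 libraries, 11 in the robust fit and 12 with DESeq2's size factors. The share of calls that were higher was 31.5% with DESeq2 and 8.33% with all 24 libraries. Leaving out 1 library gave from 0 to 15 calls. The fit with a replicate block had 0 calls with edgeR (1113 genes at an unadjusted p under 0.05); same-numbered libraries did not deviate together (correlations of 0.0408, −0.0421 and −0.0107), so the numbers were not taken to pair the samples. For the contrast with the mean of the other 3 cell types, the count of 1 became 115 with DESeq2, 4 without the filter and 2 with the replicate block, and from 1 to 5 without 1 library; Chn2 was among the calls in each of these fits. Zeb2 was called in no alternative, and its log2 value ranged from −0.139 to 0.0894 without 1 library. The sign turned without 1 library for Maf (range −0.0877 to 0.0778), Bank1 (−0.209 to 0.12), Clec4f (−0.128 to 0.0805) and Nr1h3 (−0.123 to 0.256). Of 1337 alternative fits of single genes named in the text, 1183 kept direction and side of the threshold, 78 lost and 68 gained a call, 43 of these with DESeq2. Fits without 1 library have fewer samples, and fewer or more genes enter under the filters; other causes were not tested. Marker list sums without each library were added after seeing the data. Leaving out 1 of 3 libraries cannot move a mean by 1 SD, so that bound tests nothing. The endothelial KO mean of 9400 CPM became 7592 without KO replicate 2 and 11845 without KO replicate 3. Below 0.163 CPM a gene is at the limit of what these depths allow to be tested.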
